A study of Arabidopsis thaliana with 60 samples.

Results

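AOX1A and 7 other Arabidopsis genes of the mitochondrial stress response were followed through the first hours of auxin treatment in roots. The 8 genes were taken by locus: AOX1A (AT3G22370), UPOX (AT2G21640), NAC013 (AT1G32870), NAC017 (AT1G34190), CYP81D8 (AT4G37370), UGT74E2 (AT1G05680), AT12CYS-2 (AT5G09570) and OM66 (AT3G50930). They are 8 of the 32833 genes counted in each of 60 RNA-seq libraries, and all 8 loci were present in every library. In the first hour on indole-3-acetic acid (IAA, the main natural auxin) the level of AOX1A rose 1.93- to 2.19-fold and that of OM66 rose 9.67- to 10.8-fold. For neither gene was a difference between the lines, or with the nuclear entry of an auxin response repressor, past the test's threshold. Few genes of any kind passed there, at most 0.0314% of all genes tested between the lines and at most 0.585% with nuclear entry.

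The libraries came from roots of 2 transgenic lines. In pGATA23::shy2-2-GR, the GATA23 promoter drives shy2-2, a stabilised form of the auxin response repressor IAA3, fused to the glucocorticoid receptor. In pGATA23::slr-1-GR, the same promoter drives slr-1, a stabilised form of the repressor IAA14, fused in the same way. The fusion protein enters the nucleus when dexamethasone (DEX) is given, and the solvent control was DMSO. All seedlings, 4 d after germination, were kept for 22 h on 10 µM of the auxin transport inhibitor NPA. They then spent 2 h on 10 µM NPA with 10 µM DEX or with DMSO, and were moved to 10 µM IAA with DEX or DMSO for 0, 1, 2, 4 or 6 h. The labels' harvest text names every time but 1 h, and the 12 libraries of 1 h are placed by their titles. Each of the 20 groups (2 lines, 2 treatments, 5 times) had 3 libraries, each from about 200 pooled root segments. The GATA23 promoter is known for its activity in pericycle cells that found lateral roots while the pooled segments hold all root cell types. In such bulk samples, fewer cells of a type and less RNA per cell cannot be told apart. Plants moved to fresh medium without IAA and plants without a fusion given DEX were not analysed here, so every time comparison holds both the transfer and the auxin.

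Total counts ran from 20112051 to 57076338 per library in the shy2-2 line and from 12146529 to 94077078 in the slr-1 line. IAA3, the gene of the shy2-2 fusion, stood at 21.73 ± 5.453 CPM (counts scaled to library size; SD, n = 3) in the shy2-2 line and 12.26 ± 2.506 in the slr-1 line, both under DMSO at 0 h, and IAA14 at 22.61 ± 2.773 and 30.92 ± 0.2753; plant genes and fusion are counted together. The 4 auxin response genes examined as a check (IAA5, IAA19, GH3.3 and LBD16) were all higher after 1 h of IAA in each line and treatment. The defining root genes, 9 in all, were detected in every library. A score of 9 photosynthesis genes stood above 6, on the scale of mean log2(CPM + 1), in 7 of the 60 libraries (6.64 to 8.12) and was at most 5.69 in the other 53. Among those 7 were replicates 1 and 2 of the slr-1 DEX group at 0 h and replicate 2 of the shy2-2 DEX group at 0 h. In these libraries the shoot genes YAB3 and AFO stood at 2.2 and 2.04, 1.18 and 0.68, and 1.98 and 1.95 CPM, in that order. Both were at 0 in replicate 3 of the slr-1 DEX group at 0 h. Some libraries under the cut-off also held them, as replicate 3 of the slr-1 DMSO group at 6 h did (0.58 and 0.21). Codes in the file names were read as 5 sequencing runs, which no label states. The comparisons of 2, 4 and 6 h with 0 h in the shy2-2 line, and of 1 h with 0 h in the slr-1 line under DEX, each stayed within 1 run. The other comparisons of 1 h with 0 h crossed runs. So did the comparisons of 2, 4 and 6 h with 0 h in the slr-1 line, under DMSO and under DEX.

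When respiration in plant mitochondria is disturbed, a signal to the nucleus known as mitochondrial retrograde signalling raises a set of nuclear genes. NAC013 and NAC017 are transcription factors held in a membrane by an anchor, and after release they act on genes that carry the mitochondrial dysfunction motif in their promoters. AOX1A encodes the alternative oxidase, which passes electrons from ubiquinol to oxygen past the cytochrome pathway, and it is the usual reporter of this signal. Auxin signalling and mitochondrial retrograde signalling have been described as antagonistic in Arabidopsis.

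The motif was searched on both strands as CTTG, 5 bases of any kind and then CAAG (the first form) or CACG (the second form), from 250 bases before to 50 bases after the annotated gene start in the RefSeq annotation of TAIR10.1. At least 1 match was found in 6 of the 8 genes, against 391 of 27443 nuclear genes with such a window (1.42%). The 8 genes were taken as known genes of the response that this motif is described for. A high share among them is therefore no independent test of the motif. The first form was found in 3 of the genes and in 0.904% of all windows, and the second form in 4 of the genes and in 0.536% of all windows. AOX1A held both forms, and NAC013 and OM66 held neither, also when the window was extended to 1000 bases before the start. The matches are shown with 8 bases on each side, read 5′ to 3′ on the strand that spells the motif, with the motif in capitals, because they are the sequence feature that most of these genes share.
AOX1A chr3:7906537-7906565 (+ strand): tcttccatCTTGCTCTCCAAGaaaaatct
AOX1A chr3:7906510-7906538 (+ strand): atctagctCTTGGCGACCACGcaagtatc
UPOX chr2:9254319-9254347 (+ strand): tttagtaaCTTGCTCTCCAAGgagatcta
NAC017 chr1:12451287-12451315 (− strand): ccaacattCTTGTCTGACACGacagaggt
CYP81D8 chr4:17571863-17571891 (− strand): caaactttCTTGAGGAACAAGacttgact
UGT74E2 chr1:1704805-1704833 (− strand): ccgcacatCTTGGTCGCCACGgaacatag
AT12CYS-2 chr5:2970503-2970531 (− strand): atattcccCTTGCCCGTCACGtttcttgc
The match in UPOX and the first match in AOX1A had the same 13 bases. The matches lay between 140 bases before the start, in CYP81D8, and 24 bases after it, in AOX1A. Those at AOX1A, UGT74E2 and AT12CYS-2 lay at or just after the annotated start, in sequence that can belong to the transcript.

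CYP81D8 and OM66 had the largest rises of the 8 genes in the first 2 h, and only CYP81D8 of the pair held the motif. Their 250 bases before the start are therefore given whole, read towards the gene, with matches in capitals.
CYP81D8 chr4:17571744-17571993 (− strand): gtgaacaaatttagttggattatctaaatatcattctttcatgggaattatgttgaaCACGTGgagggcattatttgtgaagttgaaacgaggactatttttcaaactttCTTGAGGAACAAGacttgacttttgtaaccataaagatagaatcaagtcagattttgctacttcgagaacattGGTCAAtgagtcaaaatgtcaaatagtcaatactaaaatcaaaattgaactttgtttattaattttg
OM66 chr3:18929276-18929525 (+ strand): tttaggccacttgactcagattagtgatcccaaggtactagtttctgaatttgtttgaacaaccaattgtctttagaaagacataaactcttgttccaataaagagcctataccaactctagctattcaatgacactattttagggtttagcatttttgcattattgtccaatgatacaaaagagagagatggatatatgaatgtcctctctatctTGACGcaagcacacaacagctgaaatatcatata
In CYP81D8 the capitals mark, in order, a G box (CACGTG), the mitochondrial dysfunction motif and a W box on the other strand (TTGACC, read here as GGTCAA). In OM66 they mark the core of an as-1 element (TGACG). The as-1 core was found in 2 of the 8 windows and in 23.1% of all windows, the W box in 3 and in 14.2%, and the G box in 2 and in 7.68%. The auxin response element TGTCTC was found in UGT74E2, 1 of the 8, and in 14.2% of all windows, and its TGTCGG form in none of the 8 and in 5.12% of all windows. These matches describe the letters in the window and do not show binding.

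**Figure D1:**
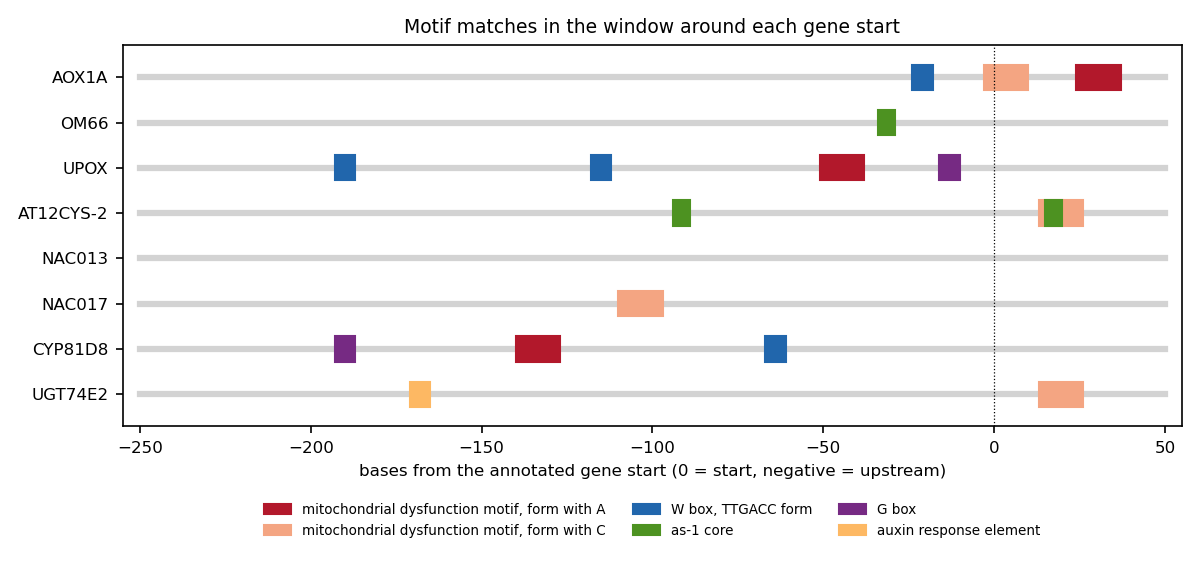
Positions of motif matches around the start of each of the 8 genes. The horizontal axis gives bases from the annotated gene start, with upstream bases negative, each grey line is 1 gene, and each coloured block is a match on either strand. The mitochondrial dysfunction motif lies within 140 bases before or 50 bases after the start in 6 genes, and NAC013 and OM66 have none.

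In 3 of the 4 combinations of line and treatment, 5 of the genes were higher after 1 h of IAA than at 0 h, at an adjusted p under 0.05 in edgeR's quasi-likelihood test with Benjamini-Hochberg adjustment over all genes tested. These were AOX1A, OM66, NAC013, CYP81D8 and UGT74E2. In the shy2-2 line under DMSO, 4 were, since UGT74E2 missed the threshold there. The number of genes tested was 7 in the shy2-2 line and 8 in the slr-1 line, and none fell. Of all genes tested, 15.8% were higher at 1 h in the shy2-2 line under DMSO, 15.4% under DEX, 15.8% in the slr-1 line under DMSO and 13% under DEX. In each line and treatment, 5 of the genes had all 3 libraries at 1 h above all 3 at 0 h, as had 20.7%, 20.5%, 20.4% and 17.8% of all genes tested, in the same order. Because the 8 genes were chosen with earlier results of these data known, their counts beside these shares are no independent test. All comparisons with 0 h in 1 line and treatment share the 3 libraries of 0 h. Levels below are in CPM, the counts divided by the library's total scaled by edgeR's trimmed mean of M-values, and each difference is a log2 fold with its standard error.

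**Figure D2:**
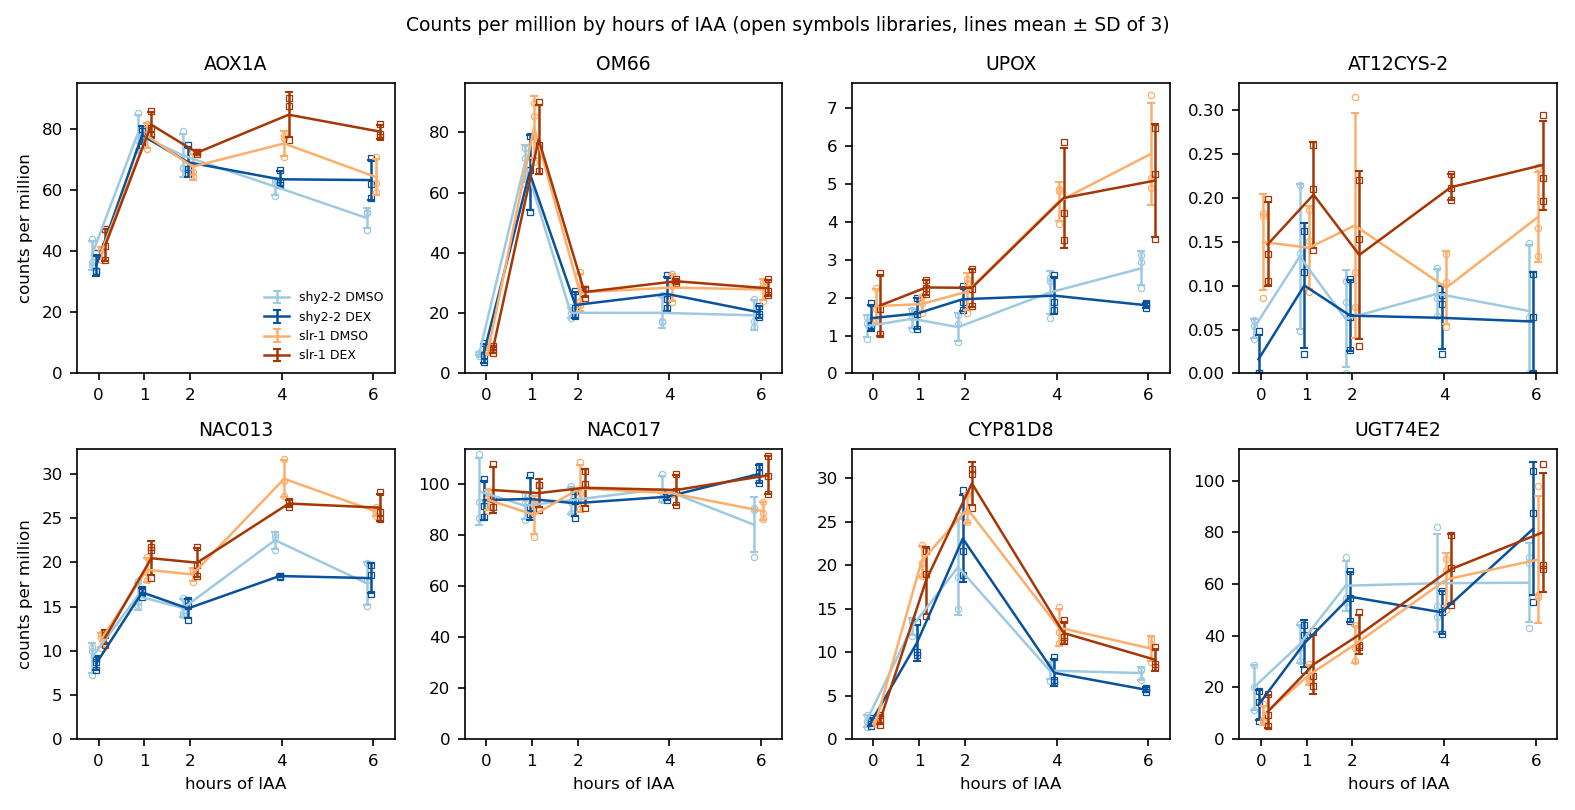
Levels of the 8 genes by hours of IAA. The vertical axes give CPM on a linear scale from 0, open symbols are libraries, lines join group means and bars are the SD of 3 libraries. OM66 stands at 53.7 to 89.9 CPM in every library at 1 h and at 3.77 to 10.02 at 0 h, CYP81D8 is highest at 2 h, NAC013 at 4 h, and NAC017 stays between 71.59 and 112.0 throughout.

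AOX1A (chromosome 3, 7906521 to 7908746, + strand, TAIR10.1) was at 36.39, 35.45 and 43.97 CPM in the 3 libraries of the shy2-2 line under DMSO at 0 h, and at 85.21, 76.26 and 73.16 at 1 h. Under DEX in the same line it was at 33.42, 33.36 and 39.39 at 0 h and at 74.6, 79.23 and 79.78 at 1 h. Every library at 1 h was above every library at 0 h in this line. The slr-1 line under DMSO had AOX1A at 36.94, 40.47 and 40.58 at 0 h and at 73.51, 78.12 and 81.58 at 1 h. Under DEX it was at 47.36, 36.99 and 41.71 at 0 h and at 85.8, 77.8 and 80.16 at 1 h. Over both lines and treatments, the 12 libraries at 0 h covered 33.36 to 47.36 CPM and the 12 at 1 h covered 73.16 to 85.8, with no overlap. The log2 fold at 1 h was 1.02 ± 0.092 (SE, n = 3 per group; edgeR quasi-likelihood adjusted p 7.8e-09) in the shy2-2 line under DMSO and 1.13 ± 0.093 (adjusted p 2e-09) under DEX. The slr-1 line gave 0.99 ± 0.084 (edgeR adjusted p 1.7e-09) under DMSO and 0.95 ± 0.083 (adjusted p 4.1e-09) under DEX. The last of these compared libraries of 1 run, and the other differences crossed runs. Without the 7 libraries high in photosynthesis RNA the log2 fold of AOX1A was 1.07 in the shy2-2 line under DEX and 0.94 in the slr-1 line under DEX. The same libraries left out, OM66 stood at 3.24 and 3.26, CYP81D8 at 2.48 and 3.44 and UGT74E2 at 1.53 and 1.63 in those combinations, all still past the edgeR threshold.

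After the first hour the level of AOX1A stayed above its 0 h level at every time. At 2 h the group means of AOX1A were 71.19 ± 7.072 and 69.03 ± 4.945 CPM (SD, n = 3) in the shy2-2 line under DMSO and DEX, and 67.57 ± 4.214 and 72.17 ± 0.4755 in the slr-1 line. At 4 h they were 61.08 ± 2.821 and 63.46 ± 2.558 in the shy2-2 line and 75.17 ± 3.995 and 84.56 ± 7.362 in the slr-1 line. None of the steps of AOX1A from 1 to 2 h, 2 to 4 h or 4 to 6 h passed the edgeR threshold in any line or treatment. By 6 h the log2 fold against 0 h was 0.44 ± 0.092 (edgeR adjusted p 0.00047) in the shy2-2 line under DMSO and 0.84 ± 0.093 (adjusted p 2.1e-07) under DEX. The slr-1 line gave 0.69 ± 0.083 (edgeR adjusted p 2.3e-07) under DMSO and 0.91 ± 0.083 (adjusted p 7.3e-09) under DEX.

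OM66 (chromosome 3, 18929526 to 18932181, + strand), an AAA ATPase of the outer mitochondrial membrane, showed the sharpest peak. In the shy2-2 line under DMSO its 3 libraries stood at 5.93, 6.59 and 6.936 CPM at 0 h, at 71.51, 74.89 and 62.99 at 1 h and at 19.91, 18.51 and 21.97 at 2 h. Under DEX they stood at 10.02, 6.086 and 3.77 at 0 h, at 67.47, 53.7 and 78.7 at 1 h and at 19.01, 27.31 and 21.82 at 2 h. The 3 times did not overlap in either treatment. For the slr-1 line under DMSO they stood at 6.991, 7.513 and 9.159 at 0 h, at 89.6, 85.3 and 70.05 at 1 h and at 22.75, 33.81 and 24.14 at 2 h. Under DEX they stood at 6.788, 9.283 and 7.955 at 0 h, at 75.65, 67.27 and 89.9 at 1 h and at 27.95, 27.96 and 25.13 at 2 h. Again the 3 times were apart in every library.

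The log2 fold of OM66 at 1 h was 3.43 ± 0.265 (edgeR adjusted p 7.2e-10) and 3.32 ± 0.269 (adjusted p 1.6e-09) in the shy2-2 line under DMSO and DEX. For the slr-1 line it was 3.37 ± 0.168 (edgeR adjusted p 1.5e-13) and 3.27 ± 0.166 (adjusted p 2.7e-13). Between 1 and 2 h OM66 fell by 1.79 (edgeR adjusted p 0.00011) and 1.54 (adjusted p 0.00039) on the log2 scale in the shy2-2 line under DMSO and DEX, and by 1.60 (adjusted p 4.6e-07) and 1.52 (adjusted p 1.7e-06) in the slr-1 line. Of all genes tested, 3.64%, 3.32%, 5.36% and 3.38% fell in these 4 steps, in the same order, and OM66 was the only one of the 8 genes that did. The step in the slr-1 line under DMSO lay within 1 run. From 2 h to 6 h the level of OM66 was flat, with no step past the threshold, and at 6 h the log2 fold against 0 h was still 1.61 and 1.62 in the shy2-2 line and 1.80 and 1.82 in the slr-1 line. OM66 had 7.735% of its stranded counts on the other strand, the second largest share among the 8 genes.

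The 2 transcription factor genes behaved differently from each other. NAC013 (chromosome 1, 11911631 to 11913947, + strand) rose at 1 h and in 3 of the 4 combinations rose again between 2 and 4 h, while NAC017 (chromosome 1, 12451405 to 12454542, + strand) was not called against 0 h at any time. In the shy2-2 line under DMSO the NAC013 libraries stood at 7.283, 9.938 and 10.37 CPM at 0 h, at 17.89, 15.05 and 15.56 at 1 h and at 22.85, 21.42 and 23.26 at 4 h. Under DEX they stood at 7.783, 8.737 and 9.181 at 0 h, at 16.69, 16.08 and 17.02 at 1 h and at 18.5, 18.48 and 18.37 at 4 h. These 3 times did not overlap. NAC013 in the slr-1 line under DMSO stood at 10.27, 11.86 and 11.45 at 0 h, at 17.98, 18.85 and 20.64 at 1 h and at 31.65, 29.24 and 27.48 at 4 h. Under DEX it stood at 11.82, 10.6 and 12.16 at 0 h, at 21.4, 21.7 and 18.27 at 1 h and at 26.91, 26.79 and 26.24 at 4 h. Here too each time lay apart from the others.

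At 1 h the log2 fold of NAC013 was 0.82 ± 0.114 (edgeR adjusted p 5.3e-06) and 0.95 ± 0.116 (adjusted p 1e-06) in the shy2-2 line under DMSO and DEX, and 0.78 ± 0.086 (adjusted p 1.4e-07) and 0.83 ± 0.085 (adjusted p 6.3e-08) in the slr-1 line. Its group mean was highest at 4 h in all 4 combinations. Between 2 and 4 h it rose by a further 0.62 (edgeR adjusted p 0.00091) in the shy2-2 line under DMSO, 0.63 (adjusted p 1.3e-05) in the slr-1 line under DMSO and 0.40 (adjusted p 0.0058) in the slr-1 line under DEX. In the shy2-2 line under DEX the step was 0.32 and did not pass (edgeR adjusted p 0.15). Of all genes tested, 6%, 13.3% and 1.58% rose in the 3 called steps. All 4 steps lay within 1 run each. NAC017 had group means between 84.12 and 104.0 CPM in the 20 groups, and its log2 fold against 0 h was between -0.17 and 0.15 at every time, with none past the threshold. At 1 h the 95% intervals of NAC017 were -0.27 to 0.11 and -0.19 to 0.19 in the shy2-2 line under DMSO and DEX, and -0.26 to 0.10 and -0.20 to 0.16 in the slr-1 line.

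**Figure D3:**
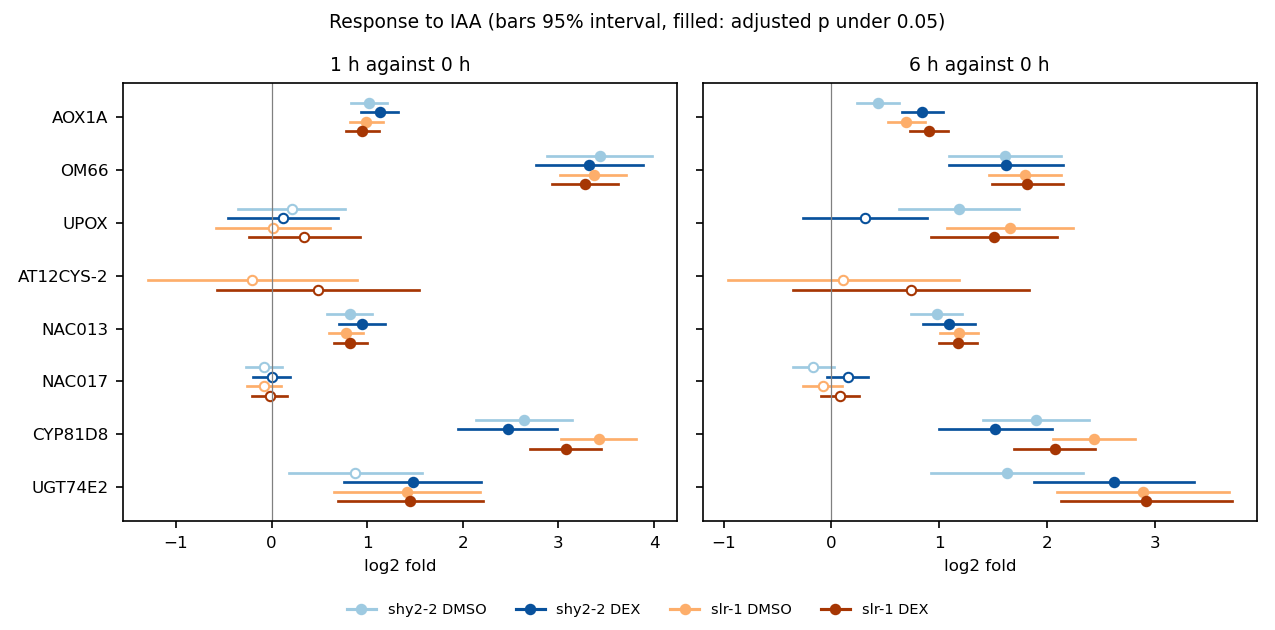
Response of each gene to IAA at 1 h and at 6 h against 0 h. The horizontal axis is the log2 fold, points are estimates, filled where the edgeR adjusted p was under 0.05, and bars are 95% intervals for each line and treatment. At 1 h OM66 lies between 3.27 and 3.43 in the 4 combinations and UPOX between 0.01 and 0.34, whereas at 6 h UPOX is past the threshold in 3 combinations.

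CYP81D8 (chromosome 4, 17569740 to 17571743, − strand), a cytochrome P450, was among the lowest of the genes before IAA and rose furthest at 2 h. Its 3 libraries in the shy2-2 line under DMSO stood at 2.129, 2.737 and 1.35 CPM at 0 h, at 13.66, 13.44 and 11.86 at 1 h and at 18.64, 14.94 and 25.76 at 2 h. Under DEX they stood at 2.432, 2.038 and 1.464 at 0 h, at 9.691, 13.46 and 10.02 at 1 h and at 18.88, 28.64 and 21.63 at 2 h. The 3 times did not overlap. CYP81D8 in the slr-1 line under DMSO stood at 1.985, 1.75 and 2.043 at 0 h, at 20.25, 22.29 and 18.73 at 1 h and at 24.91, 26.28 and 28.22 at 2 h. Under DEX it stood at 2.276, 2.73 and 1.654 at 0 h, at 21.68, 18.98 and 14.1 at 1 h and at 30.51, 31.1 and 26.54 at 2 h. Every library at 1 h was above every library at 0 h and below every library at 2 h of its line and treatment.

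The log2 fold of CYP81D8 at 1 h was 2.64 ± 0.242 (edgeR adjusted p 9.5e-09) and 2.47 ± 0.251 (adjusted p 5.9e-08) in the shy2-2 line under DMSO and DEX, and 3.42 ± 0.188 (adjusted p 7.5e-13) and 3.08 ± 0.182 (adjusted p 4.2e-12) in the slr-1 line. The further rise from 1 to 2 h passed the edgeR threshold under DEX, at 1.07 (adjusted p 0.0043) in the shy2-2 line and 0.69 (adjusted p 0.0089) in the slr-1 line. Of all genes tested, 3.06% and 3.15% rose in those steps. Without replicate 3 at 1 h the step in the slr-1 line was 0.53 (edgeR adjusted p 0.071). Under DMSO the step was 0.62 (edgeR adjusted p 0.099) and 0.37 (adjusted p 0.14), and whether it differed between the treatments was not tested. From 2 to 4 h CYP81D8 fell by 1.32, 1.61, 1.08 and 1.28 on the log2 scale in the shy2-2 line under DMSO and DEX and the slr-1 line under DMSO and DEX (edgeR adjusted p 0.00051, 0.00034, 4.3e-05 and 2.8e-05). Of all genes tested, 4.55%, 1.69%, 12.8% and 2.76% fell in these steps, and CYP81D8 was the only one of the 8 genes among them. CYP81D5, a nearby P450 gene of the same subfamily, rose at 1 h by 1.80 and 1.90 in the shy2-2 line and 1.69 and 1.63 in the slr-1 line, on the log2 scale. The subfamily genes lying between them did not share this rise. CYP81D2 and CYP81D4 were not called at 1 h. CYP81D3 was called only in the shy2-2 line under DMSO (0.48, edgeR adjusted p 0.025). How reads shared by such relatives were assigned is not given in the sources used here.

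UGT74E2 (chromosome 1, 1703002 to 1704838, − strand) encodes a glucosyltransferase that acts on the auxin precursor indole-3-butyric acid. Its mean was highest at the last time, and it varied more between replicates than the other called genes. In the shy2-2 line under DMSO it stood at 28.69, 11.31 and 20.09 CPM at 0 h, at 30.14, 35.26 and 44.61 at 1 h and at 70.5, 42.84 and 68.14 at 6 h. Under DEX it stood at 6.859, 14.46 and 18.45 at 0 h, at 40.31, 44.08 and 26.68 at 1 h and at 103.6, 53.13 and 87.47 at 6 h. Neither 1 h nor 6 h overlapped with 0 h, while 1 h and 6 h overlapped under DMSO. UGT74E2 in the slr-1 line under DMSO stood at 7.422, 13.51 and 6.703 at 0 h, at 29.15, 23.01 and 22.12 at 1 h and at 54.81, 55.7 and 97.7 at 6 h. Under DEX it stood at 17.53, 5.051 and 9.187 at 0 h, at 24.24, 41.98 and 20.38 at 1 h and at 106.5, 67.33 and 65.94 at 6 h. All 3 times lay apart in that line.

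At 1 h the log2 fold of UGT74E2 was 0.88 ± 0.335 in the shy2-2 line under DMSO, which did not pass (edgeR adjusted p 0.053), and 1.48 ± 0.345 (adjusted p 0.0023) under DEX. Without replicate 1 at 0 h, the highest of its group, the value under DMSO was 1.22 with an edgeR adjusted p of 0.015, and DESeq2 called it without leaving any library out (adjusted p 0.031). The log2 fold in the slr-1 line was 1.42 ± 0.371 (edgeR adjusted p 0.0055) under DMSO and 1.45 ± 0.366 (adjusted p 0.0048) under DEX. At 6 h it was 1.63 and 2.62 in the shy2-2 line and 2.88 and 2.92 in the slr-1 line, all past the threshold. The neighbouring UGT74E1 was far lower, at 0.3677 CPM at 1 h in the shy2-2 line and 0.6743 in the slr-1 line, both under DMSO.

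UPOX (chromosome 2, 9254378 to 9255743, + strand), named for its upregulation by oxidative stress, had the motif of AOX1A to the last base but did not share the early rise. Its log2 fold at 1 h was 0.21 ± 0.269, 0.12 ± 0.275, 0.01 ± 0.288 and 0.34 ± 0.282 in the shy2-2 line under DMSO and DEX and the slr-1 line under DMSO and DEX, with edgeR adjusted p of 0.62, 0.80, 0.98 and 0.46. The upper ends of the 95% intervals were 0.77, 0.69, 0.61 and 0.93. UPOX rose later. In the slr-1 line under DMSO its 3 libraries stood at 1.381, 1.698 and 2.25 CPM at 0 h, at 4.871, 3.941 and 4.802 at 4 h and at 5.141, 7.33 and 4.88 at 6 h. Under DEX they stood at 1.038, 2.639 and 1.707 at 0 h, at 3.53, 6.104 and 4.241 at 4 h and at 3.533, 6.475 and 5.248 at 6 h. In both treatments every library at 4 h and 6 h lay above those at 0 h.

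The log2 fold of UPOX at 6 h was 1.65 ± 0.283 (edgeR adjusted p 3.2e-05) in the slr-1 line under DMSO and 1.51 ± 0.283 (adjusted p 0.00019) under DEX. In the shy2-2 line under DMSO it stood at 1.492, 1.332 and 0.9207 CPM at 0 h and at 2.935, 3.122 and 2.261 at 6 h, without overlap, a log2 fold of 1.18 ± 0.268 (edgeR adjusted p 0.00094). Under DEX it stood at 1.848, 1.284 and 1.242 at 0 h and at 1.725, 1.822 and 1.854 at 6 h, which overlap, a log2 fold of 0.31 ± 0.278 (edgeR adjusted p 0.40). The rise of UPOX fell mostly between 2 and 4 h, where it was 1.04 (edgeR adjusted p 0.0072) in the slr-1 line under DMSO and 1.02 (adjusted p 0.032) under DEX, each within 1 run. The call under DMSO was lost without the libraries high in photosynthesis RNA (0.91, edgeR adjusted p 0.12) and without replicate 1 at 2 h (0.87, adjusted p 0.052). The call under DEX was lost without replicate 1 or 3 at 2 h (adjusted p 0.17 and 0.11) or replicate 2 or 3 at 4 h (adjusted p 0.21 and 0.064).

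AT12CYS-2 (chromosome 5, 2970498 to 2972222, + strand), which encodes a small protein with paired cysteine motifs, was close to the detection limit. It had 0 to 19 counts per library and 296 counts in all 60 libraries, and 5 libraries of the shy2-2 line had none. It did not pass the filter on low counts in the shy2-2 line and was not called at any time in the slr-1 line, so a change was not detectable at this depth. Its relative AT12CYS-1 was abundant, at 354.5 ± 23.52 CPM in the shy2-2 line and 384.8 ± 52.31 in the slr-1 line, under DMSO at 0 h, and was not called at 1 h.

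By 6 h, 6 of the genes were higher than at 0 h in the shy2-2 line under DMSO, where 26.3% of all genes were, and 5 under DEX, where 18.7% were. The slr-1 line had 6 higher under DMSO and 6 under DEX, against 29.2% and 18% of all genes. None was lower. At 2 h 5 genes were higher in each combination, against 15.8% and 12.9% of all genes in the shy2-2 line under DMSO and DEX and 19.4% and 13.1% in the slr-1 line. At 4 h there were 6, 5, 6 and 6, against 24.5%, 15.1%, 28.2% and 17.8%. AOX1A and OM66 were highest at 1 h, with the exception of AOX1A in the slr-1 line under DEX, whose mean was highest at 4 h. The mean of CYP81D8 was highest at 2 h, that of NAC013 at 4 h and that of UGT74E2 at 6 h in all 4 combinations. Per kilobase of exon, the median level over the 20 group means was 38.72 CPM for AOX1A, 36.49 for NAC017, 25.46 for UGT74E2, 10.03 for OM66, 9.371 for NAC013, 5.998 for CYP81D8, 2.726 for UPOX and 0.129 for AT12CYS-2.

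DEX made no difference to these genes that could be called in the first 4 h. Between DEX and DMSO, 0 of the genes were called by edgeR at 0, 1, 2 or 4 h in either line. At an unadjusted p under 0.05 there was UPOX at 2 h and NAC013 at 4 h in the shy2-2 line and AOX1A at 4 h in the slr-1 line, and DESeq2 also called 0 at 1 h. Of all genes tested, 0%, 0.219%, 0.594% and 10.8% differed between DEX and DMSO at 0, 1, 2 and 4 h in the shy2-2 line, and 0.0229%, 0.585%, 1.57% and 17.8% in the slr-1 line. A count of 0 among so few genes is close to these shares and does not set the genes apart. For AOX1A the difference at 1 h, DEX minus DMSO, was -0.01 on the log2 scale with a 95% interval of -0.20 to 0.18 in the shy2-2 line, where both groups came from 1 run, and 0.06 with an interval of -0.11 to 0.22 in the slr-1 line. For OM66 it was -0.07 (-0.57 to 0.42) and -0.08 (-0.39 to 0.22). For CYP81D8 it was -0.24 (-0.70 to 0.22) and -0.17 (-0.49 to 0.16). These intervals are narrow for AOX1A and leave room for a moderate difference in the other 2 genes. They describe pooled segments of all root cell types and do not bound a difference in the cells where the GATA23 promoter is active.

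The test of the response itself gave the same count. The difference between the response under DEX and under DMSO at 1 h was called by edgeR for 0 of the genes in either line, with 0 at an unadjusted p under 0.05 and 0 by DESeq2, against 0.0411% and 0.0732% of all genes. At 6 h it was called for 1 gene, AOX1A in the shy2-2 line, where 3.04% of all genes had a larger response under DEX. AOX1A there stood at 47.02, 52.55 and 52.93 CPM under DMSO and at 70.28, 61.86 and 57.46 under DEX. The 2 groups did not overlap, and DEX was higher. The response was larger by 0.40 ± 0.130 (95% interval 0.13 to 0.67; edgeR adjusted p 0.048) on the log2 scale, and each of the 2 responses compared libraries of 1 run. This call is fragile: the adjusted p was 0.064 with the counts of both strands, 0.052 without the filter on low counts, 0.18 with only the 4 groups concerned in the fit and 0.14 without the libraries high in photosynthesis RNA. It was 0.11 without replicate 1 and 0.13 without replicate 2 of the DEX group at 0 h, 0.15 and 0.052 without replicates 1 and 2 of the DEX group at 6 h, 0.15 without replicate 3 of the DMSO group at 0 h, and 0.11 and 0.067 without replicates 1 and 2 of the DMSO group at 6 h. The log2 difference stayed between 0.32 and 0.47 in these fits. In the slr-1 line the difference for AOX1A was 0.21 with a 95% interval of -0.03 to 0.46 (edgeR adjusted p 0.23), and 5.92% of all genes had a larger response under DEX there.

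At 6 h the level of AOX1A itself was higher under DEX than under DMSO in both lines. In the slr-1 line it stood at 70.84, 59.42 and 62.29 under DMSO and at 77.3, 78.12 and 81.61 under DEX, again without overlap. The log2 difference of AOX1A was 0.28 ± 0.092 (edgeR adjusted p 0.029) in the shy2-2 line and 0.31 ± 0.082 (adjusted p 0.0055) in the slr-1 line, where 8.53% and 12.3% of all genes were higher under DEX. NAC017 stood at 71.59, 90.01 and 90.76 under DMSO and at 100.5, 107.2 and 104.3 under DEX in the shy2-2 line at 6 h, a log2 difference of 0.28 ± 0.093 (edgeR adjusted p 0.036). The difference for NAC017 in the slr-1 line was 0.22 and did not pass (edgeR adjusted p 0.058). In both lines DEX and DMSO at 6 h had different run codes, so these differences in level cannot be told apart from the run. Without replicate 1 of the DEX group at 6 h the difference of AOX1A in the shy2-2 line was 0.20 (edgeR adjusted p 0.19), and without replicate 1 of the DMSO group at 6 h it was 0.25 (adjusted p 0.10) and that of NAC017 was 0.19 (adjusted p 0.13). The call of NAC017 was also lost without replicate 1, 2 or 3 of the DEX group at 6 h (edgeR adjusted p 0.059, 0.085 and 0.091). Beside these genes, the 6 h response of LBD16, an auxin-induced gene of lateral root initiation, was smaller under DEX, with a difference of -1.64 (edgeR adjusted p 6.9e-06) in the shy2-2 line and -1.42 (adjusted p 4.8e-06) in the slr-1 line on the log2 scale.

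**Figure D4:**
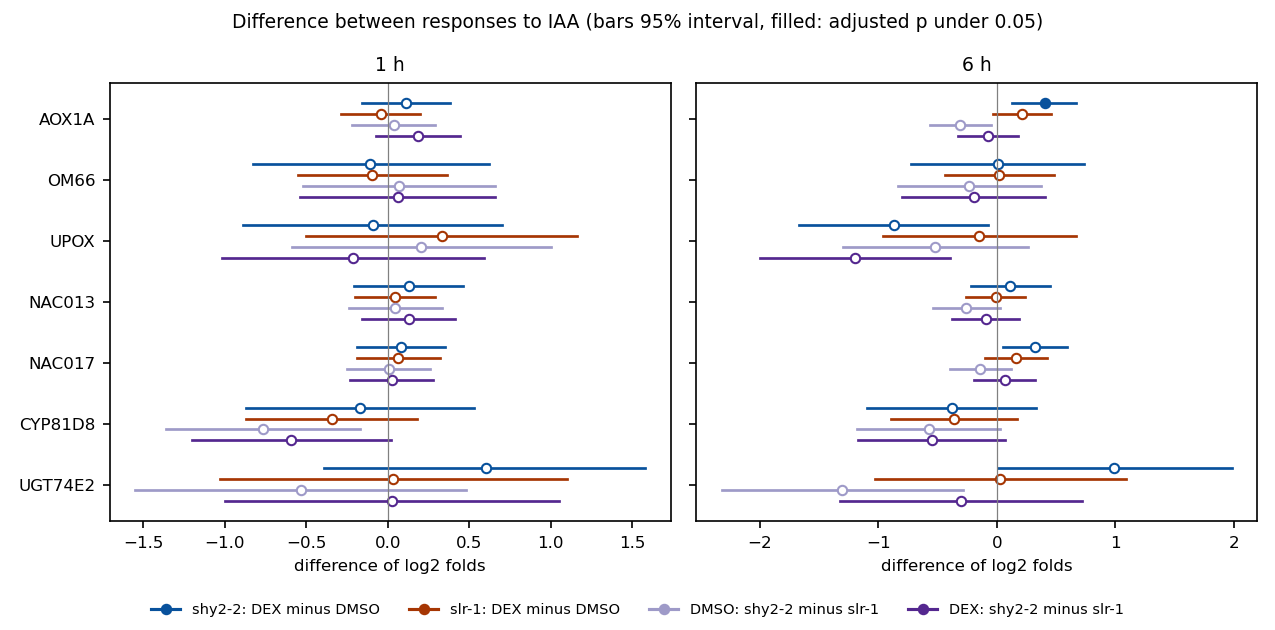
Differences between responses to IAA at 1 h and at 6 h. The horizontal axis is the difference of 2 log2 folds, DEX minus DMSO within each line and shy2-2 minus slr-1 within each treatment, with 95% intervals and points filled where the edgeR adjusted p was under 0.05. At 1 h no point is filled, and at 6 h AOX1A in the shy2-2 line, at 0.40, is the filled one.

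The lines were compared in 1 fit of all 60 libraries. The response at 1 h differed between the shy2-2 and slr-1 lines for 0 of the 8 genes by edgeR, under DMSO or under DEX, against 0.018% and 0.0314% of all genes. Under DMSO, CYP81D8 alone had an unadjusted p under 0.05: its rise was smaller in the shy2-2 line, with a difference (shy2-2 minus slr-1) of -0.77 on the log2 scale, a 95% interval of -1.36 to -0.17 and an adjusted p of 1. DESeq2 also called 0. Under DEX none had an unadjusted p under 0.05 at 1 h. At 6 h, where 0.202% of all genes differed under DMSO and 0.0135% under DEX, the genes with an unadjusted p under 0.05 were AOX1A and UGT74E2 under DMSO and UPOX under DEX. The response of AOX1A differed by -0.31 (-0.56 to -0.05; edgeR adjusted p 0.30), that of UGT74E2 by -1.30 (-2.32 to -0.28; adjusted p 0.26) and that of UPOX by -1.20 (-2.0 to -0.39; adjusted p 1), all smaller in the shy2-2 line and none called. At 4 h, where 0.157% and 0.00898% of all genes differed, the same held under DMSO for AOX1A (-0.27, adjusted p 0.76), CYP81D8 (-0.82, adjusted p 0.46) and UGT74E2 (-1.14, adjusted p 0.70), and under DEX for UPOX (-0.89, adjusted p 1). The file-name codes place the lines in largely separate sequencing runs, so a difference between lines of this size cannot be told apart from the run.

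The genes around the 8 were examined by role. These lists were chosen with earlier results of these data known. Their counts beside the shares of all genes are therefore a description and no independent test. Among 17 other genes described as mitochondrial dysfunction genes, 10 were higher at 1 h in the shy2-2 line under DMSO, 9 under DEX, 9 in the slr-1 line under DMSO and 8 under DEX, and none was lower. Their median log2 fold was 0.85, 0.68, 0.76 and 0.91, beside 0, -0.03, 0.01 and 0.01 over all genes tested. The shares of all genes higher at 1 h were 15.8%, 15.4%, 15.8% and 13%. OXI1, a protein kinase of oxidative signalling, rose by 1.39, 1.5, 1.72 and 1.49 in the same order, and the glutathione transferase GSTU24 by 1.59, 1.79, 1.83 and 1.42. At 6 h the multidrug and toxin efflux genes DTX3 and DTX4 stood out, with log2 folds of 4.98 and 5.74 in the shy2-2 line under DMSO and 4.80 and 5.12 in the slr-1 line under DMSO. DTX3 was at 0.3174 ± 0.1425 CPM at 0 h and at 9.932 ± 4.309 at 6 h in the former, and at 1.726 ± 0.2821 and 47.58 ± 15.21 in the latter.

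Alternative respiration holds the other bypasses of the respiratory chain, and 12 of its 14 listed genes were tested in the shy2-2 line and 11 in the slr-1 line. At 1 h 4, 4, 3 and 3 of them were higher and 0, 1, 0 and 1 lower, in the same order of lines and treatments. The shares of all genes higher were 15.8%, 15.4%, 15.8% and 13%. The lower gene in the slr-1 line under DEX was NDA1, an internal NAD(P)H dehydrogenase, with a log2 fold of -0.89 (edgeR adjusted p 0.028). Without the libraries high in photosynthesis RNA, which are replicates 1 and 2 of its 0 h group, the value of NDA1 was 0.19 (adjusted p 0.86). NDB2, an external NAD(P)H dehydrogenase, went from 70.06 ± 2.984 to 156.5 ± 21.95 CPM in the shy2-2 line under DMSO, a log2 fold of 1.16, and rose by 1.19, 0.95 and 0.85 in the other 3 combinations (edgeR adjusted p 3.7e-08, 3.3e-08, 4.2e-08 and 3.3e-07). DIC1, a dicarboxylate carrier of the inner membrane, rose by 1.71, 1.89, 2.11 and 1.79. The other alternative oxidase genes were scarcely expressed: the highest group means of AOX1B, AOX1D, AOX1C and AOX2 were 0.0444, 0.08046, 1.284 and 1.152 CPM. At these low levels AOX2 was called higher at 1 h in the shy2-2 line under DMSO, by 2.015 (edgeR adjusted p 0.012). At 6 h under DMSO, AOX2 was higher in the shy2-2 line (2.264), and AOX1C in the shy2-2 and slr-1 lines (1.787 and 2.057). In the cytochrome pathway, CYTC-2, 1 of the cytochrome c genes, was the only gene of the 13 tested that rose at 1 h, by 0.89, 1.07, 0.64 and 0.60, and the list's median log2 fold was 0.01, 0.01, -0.03 and 0.07. The calls of CYTC-2 in the slr-1 line were lost without replicate 1 or 2 at 0 h or replicate 2 at 1 h under DMSO (edgeR adjusted p 0.052, 0.13 and 0.22), without any 1 of the 6 libraries under DEX (0.051 to 0.20), and under DEX without the libraries high in photosynthesis RNA (0.40, adjusted p 0.54). COX5B fell by 0.34 in the slr-1 line under DMSO (edgeR adjusted p 0.047), a call lost without replicate 1 at 0 h (adjusted p 0.27) or replicate 2 or 3 at 1 h (0.057 and 0.13).

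Of 15 listed regulators of the response 13 were tested, and 5, 8, 10 and 6 were higher and 2, 0, 2 and 0 lower at 1 h. Over all genes tested, the shares higher at 1 h were 15.8%, 15.4%, 15.8% and 13%. The shares of all genes lower than at 0 h are not reported here. NAC102 rose by 1.5, 1.72, 1.57 and 1.40 on the log2 scale and NAC032, another NAC factor, by 0.85, 1.12, 0.99 and 1.04. RCD1, which encodes a protein that binds NAC013 and NAC017, was not called at 1 h in any combination. Of the detoxification genes, 12, 13, 12 and 13 of 15 were higher at 1 h and 2 lower in each combination. The glutathione transferase GSTU1 rose by 1.81, 1.86, 1.82 and 1.44, the oxophytodienoate reductase relative OPR1 by 2.12, 2.12, 2.09 and 1.67, and the glucosyltransferase UGT73B5 by 1.57, 1.70, 1.66 and 1.58. At 6 h 5, 8, 6 and 6 of the 15 were higher and 3, 2, 3 and 2 lower, beside 26.3%, 18.7%, 29.2% and 18% of all genes higher. CYP81D11, of the same subfamily as CYP81D8, moved the other way and was lower at 6 h, with log2 folds of -1.95, -1.59, -2.09 and -2.04.

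Genes known to respond to touch and oxidative stress moved with the first hour as well. Of 10 listed, 9 were tested and 4, 6, 6 and 8 were higher at 1 h, with none lower. TCH3, a calmodulin-like gene that responds to touch, rose by 3.83, 3.74, 4.07 and 3.62 on the log2 scale, and the heat stress factor gene HSFA2 by 3.48, 4.30, 2.64 and 3.21. The move to IAA began at 0 h, so each comparison with 0 h holds the transfer as well as the auxin. The part of this transfer in the rise of the mitochondrial stress genes was not tested. The motif alone did not mark the genes that rose: among all genes with either form near the start, 17.3%, 16.1%, 17.9% and 13.5% of those tested were higher at 1 h, beside 15.8%, 15.4%, 15.8% and 13% of all genes.

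**Figure D5:**
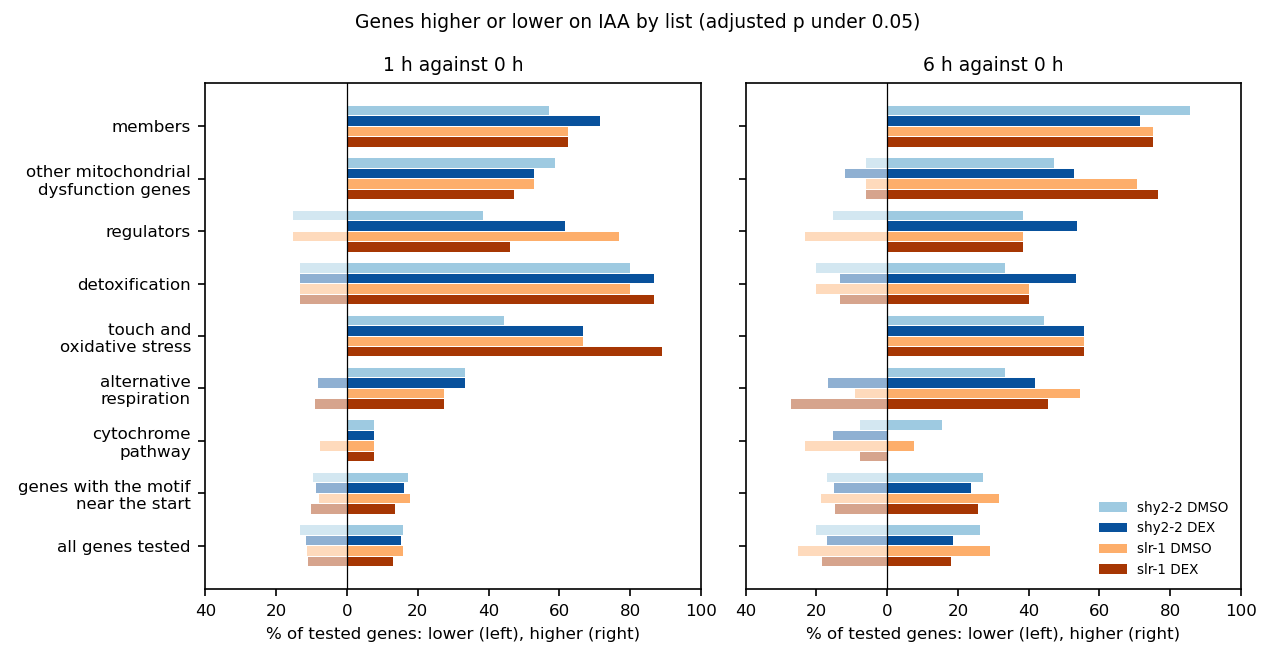
Share of the tested genes of each list that were higher (to the right) or lower (to the left, paler) at 1 h and at 6 h of IAA. The horizontal axis is in percent of the tested genes at an edgeR adjusted p under 0.05, with a bar for each line and treatment. At 1 h the detoxification bars to the right reach 80% or more and those of the cytochrome pathway are at 7.69%, and genes with the motif near the start lie close to all genes. The members and the lists by role were chosen with earlier results of these data known.

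Over the 20 group means of log2 CPM, AOX1A followed OM66 with a Pearson r of 0.89, CYP81D8 with 0.87, NAC013 with 0.80, UGT74E2 with 0.69, UPOX with 0.40 and NAC017 with 0.12. UPOX was closer to NAC013, with an r of 0.79. The genes most like AOX1A by this measure, among all genes tested in the fit of 60 libraries, were ARI12 (0.972), AT3G03020 (0.97), CNGC13 (0.966), AT1G51270 (0.962) and SAT32 (0.961). These 20 points share the time course and the libraries, so the values describe the shape of the profiles.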

How the data were processed

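Strand-specific counts per gene were deposited for 60 root RNA-seq libraries, as whole numbers with no normalization. Per the submitters' processing notes the authors used STAR 2.5.2b with TAIR10 and DESeq2, whose settings are not given in the sources used here. The count column taken as sense held 93.61 to 96.42% of the stranded counts, and 4 rows that name no gene (5.58 to 11.89% of counts) were left out. Depth was 12146529 to 94077078 counts per library, and precision is limited by 3 libraries per group.

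A separate model for each line, of 30 libraries in 10 groups, was fitted with edgeR 4.0.16 in R 4.3.3: filterByExpr, TMM, robust quasi-likelihood test, Benjamini-Hochberg adjustment over 21902 genes (shy2-2) and 21864 (slr-1), called at an adjusted p under 0.05, intervals at 95%. A fit of all 60 libraries (22268 genes) gave line differences and CPM. Scripts were tested on simulated data. Alternatives were DESeq2 1.42.0, another scaling, no filter, both strands, other sets of libraries and the replicate block. The labels do not say that libraries of a group came from separate cultures, so p-values measure the spread between these libraries, which may be technical. Same-numbered libraries varied together only weakly.

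The members and gene lists were chosen with earlier results of these data known. The members were named whatever their values. Of each further list at most 4 genes per comparison were eligible, those with the smallest adjusted p among called genes, plus close relatives and neighbours of a member, and the 5 genes most like AOX1A. AOX1B to AOX2 levels, RCD1 and CYP81D11 in the shy2-2 line under DEX, and values of an eligible gene in the other combinations, are given outside that rule. Sequences come from the RefSeq TAIR10.1 genome; all 125 listed genes matched an entry.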

Additional observations from a re-analysis of the deposited data

Results flagged for a closer look

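The response of AOX1A to 6 h of IAA differed between DEX and DMSO in the shy2-2 line, by 0.404 on the log2 scale (DEX minus DMSO), in the test of the difference itself. It only just passed the edgeR threshold and is fragile, since the call was lost in several of the alternative fits given above. Among the other genes of alternative respiration, the same test at 6 h was passed in the shy2-2 line by NDB2 (0.579), NDB3 (2.634) and NDB4 (-5.567), and in the slr-1 line by AOX1C (-3.692), NDA2 (0.517) and NDB4 (-2.636). NDB4 and NDB3, external NAD(P)H dehydrogenase genes, and AOX1C had low levels in at least 1 of the groups compared. NDB3 had 14 counts in all under DMSO and 28 under DEX over the 3 libraries of each group at 6 h in the shy2-2 line, and NDB4 had 65 and 2. The group means of NDB4 at 6 h were 0.6407 CPM under DMSO and 0.02292 under DEX in the shy2-2 line, and 3.08 and 0.4807 in the slr-1 line. AOX1C stood at 1.284 under DMSO and 0.1433 under DEX in the slr-1 line at 6 h. NDB2 stood at 71.8 ± 6.984 under DMSO and 99.79 ± 7.086 under DEX in the shy2-2 line, and its difference lost the edgeR threshold when 1 of 6 of its libraries was left out in turn (adjusted p 0.05 to 0.076) and without those high in photosynthesis RNA (0.071). Without those libraries NDA2 and NDB4 in the slr-1 line (adjusted p 0.21 and 0.097) and NDB4 in the shy2-2 line (0.069) also missed it, as did NDA2 when 1 of 5 of its libraries was left out (0.056 to 0.095) and NDB4 in the shy2-2 line without replicate 2 of the DEX group at 0 h (0.091). In both lines DEX and DMSO at 6 h had different run codes.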

How the results depend on the processing

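The counts of genes called at 1 h and 6 h stayed within 1.5 times under every alternative run. For counts this small, that range is wide enough for a gene to be lost or gained. The counts of 0 for DEX against DMSO and between the lines at 1 h stayed at 0. With the replicate block, 5 genes rather than 4 were higher at 1 h in the shy2-2 line under DMSO, since UGT74E2 passed (log2 fold 0.90, edgeR adjusted p 0.042), and NAC017 differed between DEX and DMSO at 6 h in the slr-1 line (adjusted p 0.027). Same-numbered libraries had a mean correlation of deviations of 0.049 and 0.067 in the 2 lines, and differently numbered ones had -0.024 and -0.028. Of 30 libraries in each line, 15 and 13 correlated best with their own number. This link is weak but not absent, and the numbers were not taken as pairs in the main fits. With only the compared groups fitted, AOX1A lost its call between DEX and DMSO at 6 h in both lines (adjusted p 0.14 and 0.076), as did UGT74E2 at 1 h in the slr-1 line under DEX (0.095), NAC017 at 6 h in the shy2-2 line (0.16) and CYP81D8 from 1 to 2 h in the slr-1 line under DEX (0.087); that fit has fewer samples. NDA1 at 1 h in the slr-1 line under DEX changed sign without the libraries high in photosynthesis RNA (0.194 rather than -0.886); the cause was not tested. Leaving out the libraries high in photosynthesis RNA left 1 library in the slr-1 DEX group at 0 h, assumed to vary like the others. Line differences after 1 h were not refitted with libraries left out. The 3 libraries per group limit what can be called, and AT12CYS-2 is limited by depth.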
